A study of Homo sapiens with 8 samples.

Results

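The unfolded protein response genes of the endoplasmic reticulum (ER) were followed in Huh7 cells after depletion and after overexpression of UPF1. UPF1 is the RNA helicase at the core of nonsense-mediated mRNA decay (NMD). The group consisted of 10 genes taken by symbol from the 17076 genes of the expression tables: ERN1, XBP1, ATF6, HSPA5, HSP90B1, HERPUD1, DNAJB9, SDF2L1, PDIA4 and EDEM1. All 10 had a value in every library and all 10 passed the filter on low values. None of the 10 passed the test in either comparison on the values as deposited, where 21.5% of all genes passed at an unadjusted threshold after depletion and 1.43% after overexpression. Of the 10, 3 fell at an unadjusted threshold after UPF1 depletion once a trend with GC content and length was removed, where 11.4% of all genes fell and none of the 10 passed adjustment.

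The unfolded protein response adjusts the folding capacity of the ER to its load of secretory proteins, which is heavy in hepatocytes and in cells derived from them. Its sensors sit in the ER membrane. IRE1α, made from ERN1, splices XBP1 mRNA in the cytoplasm, ATF6 is cut in the Golgi to release a transcription factor, and PERK, made from EIF2AK3, phosphorylates eIF2α and favours translation of ATF4. Active XBP1 and ATF6 raise the transcription of ER chaperones, disulfide isomerases and degradation factors. ERN1 mRNA has been described as an NMD target, which is why its level was of interest when UPF1 was changed.

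mRNA was sequenced from Huh7, an established human hepatocellular carcinoma line, in 4 groups of 2 libraries, all of transfected cells. Cells given UPF1 siRNA (siUPF1) were compared with cells given scrambled siRNA (siControl). Cells given a vector for overexpression of MYC-tagged UPF1 (MYC-UPF1) were compared with cells given the control vector with the tag (MYC). MYC in these group names is the epitope tag and not the MYC oncogene. Nothing in the descriptions says that the 2 libraries of a group came from separate cultures, so p-values measure the spread between libraries, which may be technical. Expression is given as FPKM, a fragment number scaled to transcript length and library size. The depth of the libraries is unknown, since FPKM holds no read number, and summed FPKM ranged from 403902 to 455592. The limma test was applied to log2(FPKM + 1), a scale that understates the change of low genes. A gene was called at an unadjusted two-sided p of 0.05, the threshold of the study, and Benjamini-Hochberg (BH) adjusted p-values over all genes tested are given beside it. Since bulk RNA was measured, a change in the number of expressing cells and a change in RNA per cell cannot be told apart.

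UPF1 itself was at 44.5 and 47.4 FPKM in siControl and at 20.7 and 21.9 FPKM in siUPF1. Its level fell by 1.07 on the log2 scale (SE 0.0928, BH-adjusted p = 0.0308 in limma). In MYC, UPF1 was at 45.1 and 57.4 FPKM, and in MYC-UPF1 at 2835 and 2484 FPKM, which includes RNA from the vector (log2 fold change 5.68, SE 0.110, BH-adjusted p = 8.91e-09 in limma). The libraries thus followed their labels. The hepatocyte identity of the cells was also checked. All 9 hepatocyte and Huh7 markers were present in every library, from 38.5 FPKM for the lowest value of HNF4A to 12505 FPKM for the highest value of AFP, the most abundant of them. Their summed FPKM ran from 20244 to 23678 over the 8 libraries. Of 8 stromal, endothelial and immune markers, 4 were in the tables, and their sum ran from 165 to 232 FPKM. LYZ made up nearly all of that sum, at 160 to 227 FPKM, whereas PDGFRB and PECAM1 stayed at or below 1.07 FPKM and CD68 at or below 3.84 FPKM. COL1A1, CDH5, PTPRC and CD3E were not analysed here.

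The 10 genes spanned a wide range of FPKM, a length-scaled level, and held the same order of mean level in all 4 groups. HSP90B1, the ER chaperone GRP94, was the most abundant, with a mean of 549.9 FPKM over 8 libraries, ahead of 99.5% of all genes. HSPA5, the chaperone BiP that holds the sensors inactive, followed at 323 FPKM. XBP1 (233 FPKM) and the disulfide isomerase gene PDIA4 (212 FPKM) came next, and their ranges over the 8 libraries overlapped. SDF2L1, a cofactor of the BiP cycle, stood alone in the middle at 49.1 FPKM. DNAJB9, a co-chaperone of BiP, EDEM1 and HERPUD1 lay at 22.8, 19.0 and 16.2 FPKM and neighbours among these overlapped. The membrane sensors were the lowest, ATF6 at 4.97 FPKM and ERN1 at 3.46 FPKM, and their ranges did not overlap. Over all 8 libraries the ratio of the highest to the lowest value of a gene ran from 1.15 for ERN1 to 1.61 for SDF2L1 and 1.66 for DNAJB9.

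**Figure D1:**
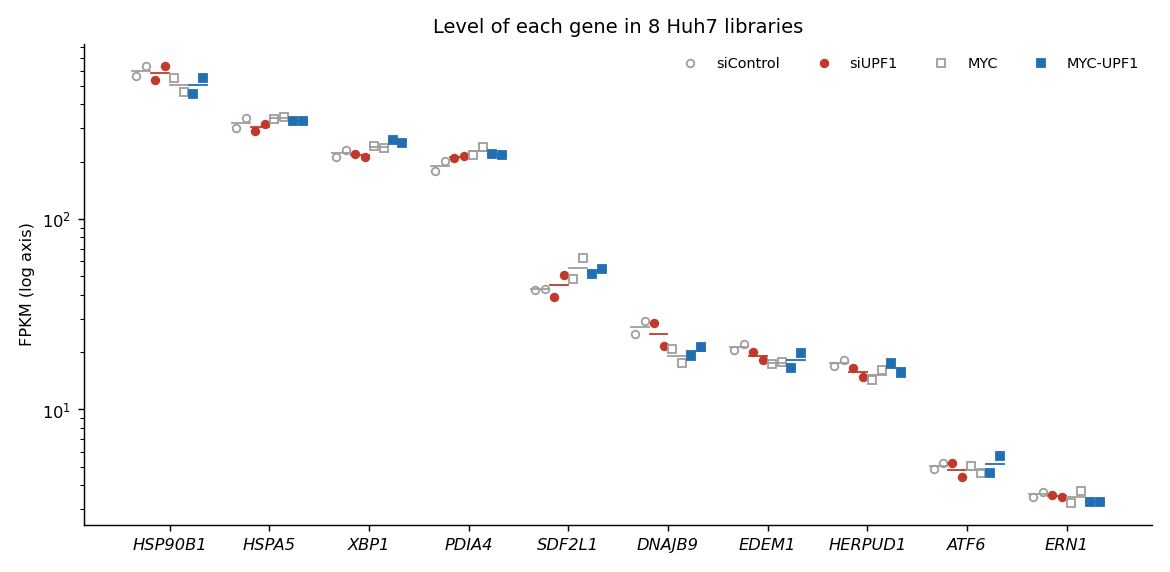
FPKM of the 10 genes (log axis) in each of the 8 libraries, ordered by mean level; points are single libraries and short lines are group means. The genes run from 549.9 FPKM for HSP90B1 to 3.46 FPKM for ERN1, and the treated and control libraries of each gene lie close together.

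The first comparison asked whether loss of UPF1 moved these genes. After depletion, 0 of the 10 were called, while 21.5% of the 13535 genes tested were called (16.0% rose and 5.51% fell). At a BH-adjusted p of 0.05, 0 of the 10 and 0.0369% of all genes passed in limma. The log2 fold changes of the 10 ran from -0.15 for HERPUD1 to 0.16 for PDIA4, with 8 below and 2 above 0. Their median was -0.045, beside 0.057 over all genes tested. The BH-adjusted p-values lay between 0.382 and 0.919 in limma. The 95% intervals, which are not corrected for the number of genes, reached at most 1.32-fold higher, for PDIA4, and 1.39-fold lower, for DNAJB9. Under median centring, the genes called in all were 1602 rises and 1271 falls, and under quantile normalization 1417 and 1408, against 2162 and 746 as deposited. None of the 10 was called under either scaling after depletion.

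The second comparison asked the same of UPF1 excess. After overexpression, 0 of the 10 were called, while 1.43% of the 13251 genes tested were called (0.619% rose and 0.807% fell). At a BH-adjusted p of 0.05, 0 of the 10 and 0.00755% of all genes passed in limma. The log2 fold changes ran from -0.066 for ERN1 to 0.11 for HERPUD1, with 5 on each side of 0 and a median of 0.019, beside -0.014 over all genes. The intervals reached a log2 fold change of at most 0.38, for ATF6, and 1.27-fold lower, for ERN1. The effect of depletion and the effect of overexpression were also set against each other in a fit of all 8 libraries. That difference was called for 0 of the 10 genes at an unadjusted p and for 15.2% of 13412 genes, and at a BH-adjusted p for 0 of the 10 and for 0.0224% in limma. The largest differences among the 10 were -0.27 for HERPUD1 (SE 0.149, BH-adjusted p = 0.410 in limma) and 0.22 for PDIA4 (SE 0.122, BH-adjusted p = 0.404 in limma). A p that misses the threshold does not show that a gene was unaffected.

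**Figure D2:**
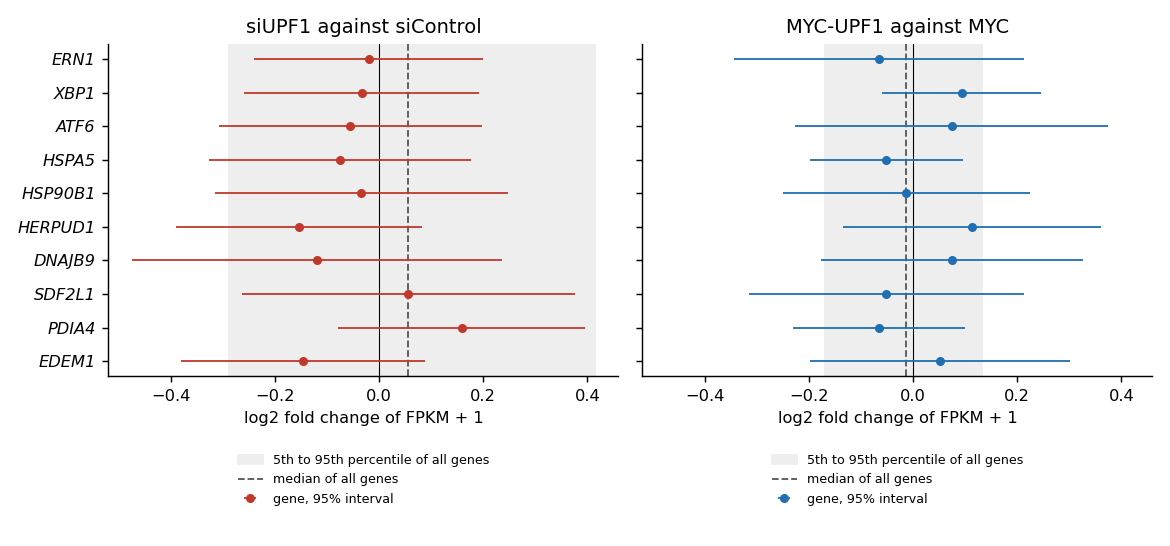
Log2 fold change of FPKM + 1 (horizontal axis) for each of the 10 genes with its 95% limma interval, siUPF1 against siControl on the left and MYC-UPF1 against MYC on the right, with 2 libraries in each group. The grey band spans the 5th to 95th percentile and the dashed line is the median of all genes tested; every interval of the 10 genes crosses 0.

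The sensors were examined first. ERN1 encodes the kinase and endoribonuclease IRE1α (GRCh37, chr17:62116440-62208179, minus strand). ERN1 was at 3.46 and 3.70 FPKM in siControl and at 3.56 and 3.47 FPKM in siUPF1. Both siUPF1 values fell between the siControl values (log2 fold change -0.020, SE 0.0929, 95% interval 1.18-fold lower to 1.15-fold higher). In MYC, ERN1 was at 3.22 and 3.71 FPKM, and in MYC-UPF1 at 3.26 and 3.27 FPKM, again between the controls (log2 fold change -0.066, SE 0.124). The representative GENCODE transcript of ERN1 has 22 exons and a 3′UTR of 4846 bases with 0 introns in it. None of its 10 listed transcripts is annotated as an NMD substrate. The lack of such an intron or annotation does not show that ERN1 mRNA escapes NMD. ATF6, the sensor that becomes a transcription factor (chr1:161736088-161947364, plus strand), was at 4.86 and 5.21 FPKM in siControl and at 5.23 and 4.41 FPKM in siUPF1. The siUPF1 values lay on either side of both controls. ATF6 was at 5.02 and 4.65 FPKM in MYC and at 4.61 and 5.73 FPKM in MYC-UPF1, where the groups overlapped as well. For the other sensors, EIF2AK3 (PERK) went from a mean of 7.31 FPKM in siControl to 8.77 FPKM in siUPF1, without overlap between the libraries, with a log2 fold change of 0.23 that missed the unadjusted threshold (SE 0.102, BH-adjusted p = 0.244 in limma). EIF2AK3 was called with the GC trend described further on removed (0.236, BH-adjusted p = 0.120 in limma) and without siUPF1 replicate 2 (0.297, BH-adjusted p = 0.0621 in limma). ATF6B, the paralog of ATF6, had a log2 fold change of 0.076 (SE 0.111), which was -0.096 once the same trend was removed.

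XBP1 is the transcription factor activated by IRE1α (chr22:29190543-29196585, minus strand). IRE1α cuts a short intron of 26 bases out of its mRNA, and this sequence is shown because it is the direct substrate of the sensor. In GENCODE it lies at chr22:29192116-29192141 of GRCh37, on the minus strand, and the same spliced RNA results from 7 neighbouring placements. Capitals mark the GENCODE placement, and at which of the placements IRE1α cuts was not determined here. With 24 bases of flank on each side (chr22:29192092-29192165) the strand of the mRNA reads as follows.
XBP1 intron: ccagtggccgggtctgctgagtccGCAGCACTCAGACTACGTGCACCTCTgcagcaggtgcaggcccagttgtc
FPKM per gene sums both forms, so the values bear on the amount of XBP1 mRNA and not on its splicing. XBP1 was at 212 and 231 FPKM in siControl and at 221 and 212 FPKM in siUPF1, and the groups overlapped (log2 fold change -0.033, SE 0.0953). It was at 243 and 236 FPKM in MYC and at 260 and 252 FPKM in MYC-UPF1. Both MYC-UPF1 values exceeded both MYC values, by 1.07-fold on average (95% interval 1.04-fold lower to 1.19-fold higher, BH-adjusted p = 0.999987 in limma). This was the sole member of the 10 with both MYC-UPF1 libraries above both controls, a position held by 8.88% of all genes. Under quantile normalization XBP1 passed the unadjusted threshold (log2 fold change 0.145) and not the adjusted one. At that unadjusted threshold 108 genes in all rose and 103 fell.

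Chaperone genes carry known binding motifs for ATF6 and XBP1, and the promoter windows of the 10 genes (RefSeq, GRCh38.p14, 250 bases before to 50 after the start) were searched for them on both strands. The ER stress response element, CCAAT followed after 9 bases by CCACG, occurred in 3 of the 10 genes, HSPA5, HSP90B1 and XBP1, and in 0.0769% of 35116 windows. The shorter second form, ATTGG and CCACG separated by 1 base, occurred in HERPUD1 and SDF2L1 and in 0.0541% of windows. The XBP1 motif TGACGTGG was in 0 of the 12 windows of the 10 genes and in 0.729% of all windows. The sites are shown on the strand of the gene with the motif in capitals, since these genes are the textbook targets of the response; for HSP90B1 the second site and for SDF2L1 the single site lie on the opposite strand.
HSPA5, chr9:125241381-125241419, minus strand: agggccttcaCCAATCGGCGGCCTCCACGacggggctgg
HSP90B1, chr12:103930206-103930244, plus strand: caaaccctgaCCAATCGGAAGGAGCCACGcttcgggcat
HSP90B1 second site, chr12:103930311-103930349, plus strand: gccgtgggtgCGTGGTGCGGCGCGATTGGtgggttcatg
XBP1, chr22:28800593-28800631, minus strand: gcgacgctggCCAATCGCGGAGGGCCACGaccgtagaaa
HERPUD1, chr16:56932015-56932045, plus strand: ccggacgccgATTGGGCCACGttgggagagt
SDF2L1, chr22:21642104-21642134, plus strand: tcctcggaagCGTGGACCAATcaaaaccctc
The site in HSPA5 began 66 bases before the start, that in XBP1 52 bases and that in HERPUD1 117 bases. A match describes these letters and does not show that a factor was bound. Of 17 tested genes whose windows held the longer element, HSPA5, HSP90B1 and XBP1 among them, 1 rose and 0 fell after depletion and 0 were called after overexpression, where 21.5% and 1.43% of all genes were called. Of 14 with the shorter form, HERPUD1 and SDF2L1 among them, 0 were called in either comparison. Of 115 with TGACGTGG, 17 rose and 9 fell after depletion, in all 22.6%, and 1 rose after overexpression (0.870%).

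Among the chaperones, HSPA5 (chr9:127997132-128003661, minus strand) is the gene most often read as a gauge of the response. HSPA5 was at 299 and 340 FPKM in siControl and at 291 and 315 FPKM in siUPF1, and the groups overlapped (log2 fold change -0.075, SE 0.106, 95% interval 1.25-fold lower to 1.13-fold higher). In MYC it was at 336 and 345 FPKM, and in MYC-UPF1 at 329 and 328 FPKM. Both MYC-UPF1 values were below both controls, the sole such case among the 10 and a position held by 11.8% of all genes, with a log2 fold change of -0.051 (SE 0.0653, BH-adjusted p = 0.999987 in limma). HSP90B1 (chr12:104323885-104347709, plus strand) was at 567 and 634 FPKM in siControl and at 538 and 638 FPKM in siUPF1, so that the siUPF1 values enclosed the controls. Its log2 fold change was -0.034 (SE 0.119), and it turned to 0.0018 under quantile normalization. It was at 549 and 465 FPKM in MYC and at 454 and 552 FPKM in MYC-UPF1, with the same enclosure.

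DNAJB9 and SDF2L1 were the members that differed most between the siUPF1 libraries. DNAJB9 (chr7:108210311-108215294, plus strand) was at 24.9 and 29.2 FPKM in siControl and at 28.6 and 21.4 FPKM in siUPF1. SDF2L1 (chr22:21996591-21998588, plus strand) was at 42.6 and 43.1 FPKM in siControl and at 38.9 and 51.1 FPKM in siUPF1. The siUPF1 libraries thus disagreed on the direction, in opposite ways for these genes. In replicate 2 of siUPF1, DNAJB9 was 0.750 times and SDF2L1 1.31 times its level in replicate 1. In MYC and MYC-UPF1, DNAJB9 was at 20.7 and 17.6 FPKM and at 19.1 and 21.3 FPKM. SDF2L1 was at 48.3 and 62.5 FPKM and at 51.5 and 54.5 FPKM, and the groups overlapped for both genes.

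PDIA4, a disulfide isomerase (chr7:148700154-148725754, minus strand), was at 178 and 201 FPKM in siControl and at 209 and 214 FPKM in siUPF1. It was the sole member of the 10 with both siUPF1 libraries above both controls, a position held by 37.5% of all genes, and its log2 fold change of 0.16 did not pass (95% interval 1.06-fold lower to 1.32-fold higher, BH-adjusted p = 0.382 in limma). It was 0.0711 without siControl replicate 1 and 0.068 with the GC trend removed. In MYC and MYC-UPF1, PDIA4 was at 218 and 238 FPKM and at 220 and 216 FPKM. The members that act in ER-associated degradation are HERPUD1 and EDEM1. HERPUD1, which recruits the degradation complex (chr16:56966054-56978776, plus strand), was at 17.0 and 18.1 FPKM in siControl and at 16.6 and 14.8 FPKM in siUPF1. EDEM1, which marks misfolded glycoproteins for disposal (chr3:5229331-5261643, plus strand), was at 20.5 and 22.1 FPKM in siControl and at 20.1 and 18.2 FPKM in siUPF1. For both genes the siUPF1 libraries were below both controls, as for 18.5% of all genes, with log2 fold changes of -0.15 (SE 0.0999, BH-adjusted p = 0.393 in limma) and -0.15 (SE 0.0989, BH-adjusted p = 0.414 in limma). After overexpression HERPUD1 was at 17.4 and 15.6 FPKM against 14.3 and 16.1 FPKM in MYC, and EDEM1 at 16.6 and 19.8 FPKM against 17.3 and 17.7 FPKM. Both of these overlapped with their controls.

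The fold changes of all genes followed the GC content of their transcripts, and this bears on how the 10 are read. Across 12833 tested genes with a GENCODE transcript, the Spearman correlation of the depletion fold change with GC content was 0.553, and across 12590 genes it was -0.440 for overexpression. Genes are not independent replicates, and these values describe the libraries. Among 10 bins of genes ordered by GC content, the median log2 fold change after depletion went from -0.11 in the lowest bin to 0.26 in the highest. The same trend separated libraries within a group. The difference between replicate 2 and replicate 1 correlated with GC content at 0.606 in siUPF1, 0.705 in MYC and -0.646 in MYC-UPF1, against -0.0165 in siControl. The 10 genes span this axis from DNAJB9 (37.3% GC, in the lowest bin) to SDF2L1 (65.1% GC, in the highest bin), the members that moved in opposite ways between the siUPF1 libraries. Not every member followed the trend between those libraries, since HSP90B1 (41.8% GC) was 1.18 times and HSPA5 (46.1% GC) 1.08 times as high in replicate 2 as in replicate 1.

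The comparison was therefore repeated after a loess trend with GC content and length had been removed from each library. After depletion 3 of the 10 genes then fell at an unadjusted p: HERPUD1, EDEM1 and SDF2L1. HERPUD1 fell by 0.18 on the log2 scale (SE 0.0636). EDEM1 fell by 0.17 (SE 0.0648). SDF2L1 fell by 0.18 (SE 0.0713), where it had been 0.056 before. Their BH-adjusted p-values were 0.174, 0.197 and 0.207 in limma, and 0 of the 10 passed at an adjusted p of 0.05. On the same scale 22.6% of all genes were called and 11.4% fell. ERN1 was at -0.14 (SE 0.0709), not called, and DNAJB9 at 0.0043 (SE 0.0879). With the replicate block added, HERPUD1 and SDF2L1 were called, beside 20.8% of all genes. After overexpression with the trend removed, 0 of the 10 and 3.37% of all genes were called. The difference of the effects was then called for EDEM1, HERPUD1 and XBP1, beside 16.1% of all genes. The part that GC content and length have in these differences was not tested. The depletion result also depended on siUPF1 replicate 1. Without that library 43.6% of all genes were called, and so were HERPUD1 (log2 fold change -0.232), EDEM1 (-0.214), DNAJB9 (-0.319) and SDF2L1 (0.249), with DNAJB9 alone of the 10 passing at an adjusted p (0.0185 in limma), as did 33.5% of all genes. Without siUPF1 replicate 2 in its place, HERPUD1 was at -0.076 and EDEM1 at -0.0767, neither called. The lone siUPF1 library is then assumed to vary like the controls.

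**Figure D3:**
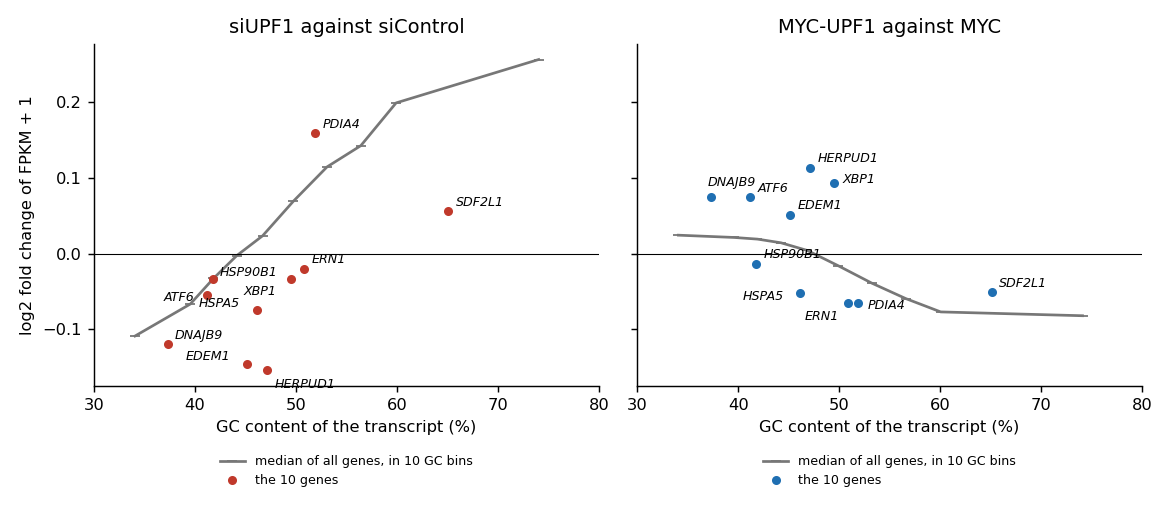
Log2 fold change of FPKM + 1 against the GC content of the transcript (%), siUPF1 against siControl on the left and MYC-UPF1 against MYC on the right. The grey line is the median of all tested genes in each of 10 GC bins, from -0.11 to 0.26 on the left, and labelled points are the 10 genes. DNAJB9, at 37.3% GC, and SDF2L1, at 65.1% GC, stand at the ends of the axis among the 10.

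Annotated NMD substrates were looked up for the members. GENCODE release 44 lists at least 1 transcript of the NMD type for 4 of the 10 genes (40%): HSP90B1 with 9, ATF6 with 6, EDEM1 with 2 and HERPUD1 with 1. The share among 12833 tested genes was 43.3%. None of the 10 chosen transcripts has an intron in its 3′UTR. FPKM per gene does not separate such transcripts from the coding ones, so their own levels were not measured.

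Of the other genes of the pathway, 100 were tested after depletion. They were grouped by role in 7 lists, and 15 rose and 8 fell, in all 23%, beside 21.5% of all genes (16.0% rose and 5.51% fell). None of the 100 passed at an adjusted p in the comparison of 2 libraries with 2. Over the other settings that kept every library of the comparison 0 to 3 passed, the 3 in the single fit of 8 libraries, beside 2.81% of all genes. Without siControl replicate 1 and replicate 2, 1 and 2 passed, beside 0.850% and 1.13% of all genes. Without siUPF1 replicate 2 and replicate 1, 7 and 30 passed, beside 9.16% and 33.5% of all genes. With the GC trend removed 2 passed, beside 2.05% of all genes, and 0 with the replicate block added. Their median log2 fold change was 0.039, beside 0.057 over all genes. Under quantile normalization 13 rose and 13 fell, beside 10.5% and 10.4% of all genes. Under median centring 12 rose and 13 fell, beside 11.8% and 9.39% of all genes. Once the GC trend was removed 17 rose and 19 fell, beside 11.2% and 11.4% of all genes. After overexpression 2 of 99 rose and 0 fell, beside 0.619% and 0.807% of all genes, with a median of 0.028 beside -0.014. With the GC trend removed 9 rose and 3 fell, where 3.37% of all genes were called. With the replicate block added, the calls among the 99 went from 12 to 7. The share of all genes called with that block is not given here, so these 7 have no background beside them. At an adjusted p 0 of the 99 passed in each of these fits. Genes below that were not among the 10 strongest called per comparison were named after their values were seen, to account for small counts.

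The strongest change in the pathway was in ERP44, a thioredoxin-fold protein that retrieves client proteins and oxidases to the ER. ERP44 was at 19.4 and 21.7 FPKM in siControl and at 10.4 and 9.93 FPKM in siUPF1. Both siUPF1 libraries were below both controls, with a mean ratio of 0.518 on the FPKM + 1 scale (log2 fold change -0.95, SE 0.0978, BH-adjusted p = 0.0579 in limma). Over the other settings with all 4 libraries of the comparison, the BH-adjusted p in limma ran from 0.00465 at a minimum of 5 FPKM to 0.193 with no minimum. It was 0.00707 in the single fit of 8 libraries and 0.0202 with the GC trend removed, and 0.0952 with the replicate block, 0.0616 under median centring and 0.0579 under quantile normalization. In MYC and MYC-UPF1 it was at 20.1 and 18.5 FPKM and at 19.0 and 19.1 FPKM, inside the spread of the controls. Its partner ERO1A, the oxidase that recharges disulfide isomerases, fell by 0.33 (SE 0.119, BH-adjusted p = 0.183 in limma), from 12.7 and 13.7 FPKM to 11.4 and 9.22 FPKM. That fall was no longer called without siControl replicate 2 (-0.28) or without siUPF1 replicate 2 (-0.195). TMX1 also fell, and QSOX1, a sulfhydryl oxidase of the secretory pathway, rose from 4.52 and 5.31 FPKM to 6.22 and 8.595 FPKM (log2 fold change 0.50, BH-adjusted p = 0.147 in limma). QSOX1 stood at 0.292 without siUPF1 replicate 2 and at 0.317 with the GC trend removed. Of the 12 disulfide isomerases and oxidases beside PDIA4, 1 rose and 3 fell, beside 16.0% and 5.51% of all genes, with a median log2 fold change of -0.026 beside 0.057. Once the GC trend was removed 1 rose and 5 fell, PDIA5 and TXNDC11 being the further falls, beside 11.2% and 11.4% of all genes.

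The BiP system, the degradation machinery and the translocation genes came next, and their counts stand beside 16.0% of all genes that rose, 5.51% that fell and a median of 0.057. Of 15 chaperones and cofactors beside the members, 1 rose and 0 fell, with a median of 0.066. It was SIL1, the nucleotide exchange factor of BiP, which went from 10.5 and 10.9 FPKM to 12.6 and 16.0 FPKM (log2 fold change 0.38, SE 0.124, BH-adjusted p = 0.164 in limma). SIL1 was not called without siControl replicate 1 (0.354) or with the GC trend removed (0.202), and stood at 0.215 without siUPF1 replicate 2. Of 18 other degradation genes 0 rose and 1 fell, with a median of 0.081, the fall being that of the ubiquitin-conjugating enzyme gene UBE2J1 (log2 fold change -0.31, SE 0.112). Of the 15 chaperones and cofactors, 1 rose (SIL1) and 2 fell (HYOU1 and SDF2) under quantile normalization and under median centring. The shares of all genes that rose and fell were 10.5% and 10.4%, and 11.8% and 9.39%, in these settings. With the GC trend removed, FKBP14 rose and HYOU1 and SDF2 fell among the chaperones. EDEM3 and SEL1L then rose and SYVN1, UBE2J1 and AUP1 fell among the degradation genes. In that setting 22.6% of all genes were called. DERL3 was not analysed here. Of 24 genes of translocation and early traffic, 2 rose (SEC61A1 and SRPRB) and 2 fell (SSR1 and SRP19), with a median of -0.073 beside 0.057. Under median centring 1 rose and 4 fell, beside 11.8% and 9.39% of all genes. Once the GC trend was removed 2 rose (SRPRB and KDELR3) and 5 fell, beside 11.2% and 11.4% of all genes. SEC61A1 was not called in either of these settings. Under quantile normalization it was called, and 3 rose (SEC61A1, SSR2 and SRPRB) and 4 fell, beside 10.5% and 10.4% of all genes. SRP19, a protein of the signal recognition particle, went from 17.1 and 18.5 FPKM to 14.8 and 12.9 FPKM (log2 fold change -0.35, SE 0.105, BH-adjusted p = 0.147 in limma) and was not called without siControl replicate 2 (-0.294).

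The list of sensors and transcription factors also held genes that act with them, such as TRAF2, RTCB, MAP3K5, MBTPS1 and MBTPS2. Among its 13 genes beside the members, 4 rose (CREB3, CREB3L2, NFYA and TRAF2) and 1 fell (YY1). The shares of all genes were 16.0% and 5.51%. Under quantile normalization 3 rose (CREB3, CREB3L2 and RTCB) and under median centring 3 (CREB3, CREB3L2 and NFYA), beside 10.5% and 11.8% of all genes. With the GC trend removed 5 rose (CREB3, CREB3L2, EIF2AK3, NFYA and RTCB), beside 11.2% of all genes. YY1 alone fell in these settings, beside 10.4%, 9.39% and 11.4% of all genes. TRAF2, the adaptor that links IRE1α to kinase signalling, went from 10.5 and 12.9 FPKM to 13.7 and 18.4 FPKM (log2 fold change 0.42, SE 0.157, BH-adjusted p = 0.201 in limma). TRAF2 was not called under quantile normalization (0.357), under median centring (0.376) or with the GC trend removed (0.194), nor without siControl replicate 1 (0.281) or siUPF1 replicate 2 (0.213). Of 6 tested RNAs described as cleaved by IRE1α, 3 rose (COL6A1, SCARA3 and SPARC) and 0 fell, with a median of 0.27, beside 16.0% of all genes that rose and a median of 0.057. Under quantile normalization SPARC was not called and 2 rose, beside 10.5% of all genes. COL6A1, a collagen chain, went from 2.42 and 2.77 FPKM to 4.23 and 5.63 FPKM (log2 fold change 0.72, SE 0.134, BH-adjusted p = 0.0793 in limma). SCARA3, a scavenger receptor family gene, went from 6.12 and 6.10 FPKM to 8.93 and 8.87 FPKM (log2 fold change 0.48, SE 0.0883, BH-adjusted p = 0.0793 in limma). With the GC trend removed these rises were 0.447 and 0.255 and were still called at an unadjusted p.

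PPP1R15A, in the list of the PERK arm and CHOP targets, was the sole pathway gene called to rise in both comparisons. After depletion 4 of the 12 tested genes of that list rose (ATF4, DDIT3, NUPR1 and PPP1R15A) and 1 fell (ASNS). The shares of all genes were 16.0% and 5.51%. Under quantile normalization and under median centring 3 rose and 2 fell, and with the GC trend removed 3 rose (ATF4, DDIT3 and NUPR1) and 3 fell (ASNS, CHAC1 and TRIB3). The shares of all genes that rose and fell were 10.5% and 10.4%, 11.8% and 9.39%, and 11.2% and 11.4% in these settings. ATF4, the transcription factor of the PERK arm, was at 203 and 213 FPKM in siControl and at 249 and 273 FPKM in siUPF1 (log2 fold change 0.32, SE 0.0969, BH-adjusted p = 0.144 in limma). DDIT3, which encodes CHOP, was at 12.3 and 12.7 FPKM and at 14.3 and 16.2 FPKM (log2 fold change 0.26, SE 0.0997, BH-adjusted p = 0.207 in limma). The siUPF1 libraries were above both controls for both genes. NUPR1, a small stress-induced chromatin protein, went from 1.305 and 1.302 FPKM to 1.77 and 2.17 FPKM (log2 fold change 0.36, SE 0.107), a low gene whose log2 fold change was 0.554 with a pseudocount of 0.1. ASNS, the asparagine synthetase gene, fell by 0.23 on the log2 scale (SE 0.0877), and CHAC1 was at -0.29 (SE 0.126, BH-adjusted p = 0.238 in limma), TRIB3 at 0.019 (SE 0.101) and SESN2 at 0.16 (SE 0.0921), none of these 3 called. ATF4, DDIT3 and PPP1R15A were not called without siControl replicate 1 (0.292, 0.236 and 0.348) or without siControl replicate 2 (0.358, 0.284 and 0.336). DDIT3 was also not called without siUPF1 replicate 2 (0.175), under quantile normalization (0.207) or under median centring (0.221), and PPP1R15A was not with the GC trend removed (0.152).

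After overexpression 2 of 11 tested genes among the PERK arm and CHOP targets rose, ATF3 and PPP1R15A, beside 0.619% of all genes. EIF2AK3, which encodes PERK, stood in the list of sensors and was not called (log2 fold change 0.12, SE 0.125). ATF3, a stress-induced transcription factor, was at 3.02 and 3.76 FPKM in MYC and at 4.94 and 5.48 FPKM in MYC-UPF1 (log2 fold change 0.50, SE 0.134). In siControl and siUPF1 it did not differ past the test, at 4.56 and 4.78 FPKM and at 4.57 and 4.66 FPKM. PPP1R15A, the phosphatase subunit GADD34 that reverses eIF2α phosphorylation, was at 13.0 and 16.5 FPKM in MYC and at 19.6 and 17.2 FPKM in MYC-UPF1 (log2 fold change 0.31, SE 0.128), after 16.6 and 16.4 FPKM in siControl and 19.5 and 23.0 FPKM in siUPF1 (0.34, SE 0.106). The rise in MYC-UPF1 was not called without MYC replicate 1 (0.152), without MYC-UPF1 replicate 1 (0.222) or with the replicate number as a block. The BH-adjusted p-values of both genes after overexpression were 0.999987 in limma. All 11 genes had a log2 fold change above 0, with a median of 0.15, where 43.1% of all genes did. With the GC trend removed 6 of the 11 rose, while 1.81% of all genes rose. The further genes were CHAC1, TRIB3, SESN2 and DDIT4. At an adjusted p 0 of the 99 pathway genes tested passed in that setting. With the replicate block added, the calls among the 99 went from 12 to 7. How many of the 6 genes stayed called with that block is not given here.

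**Figure D4:**
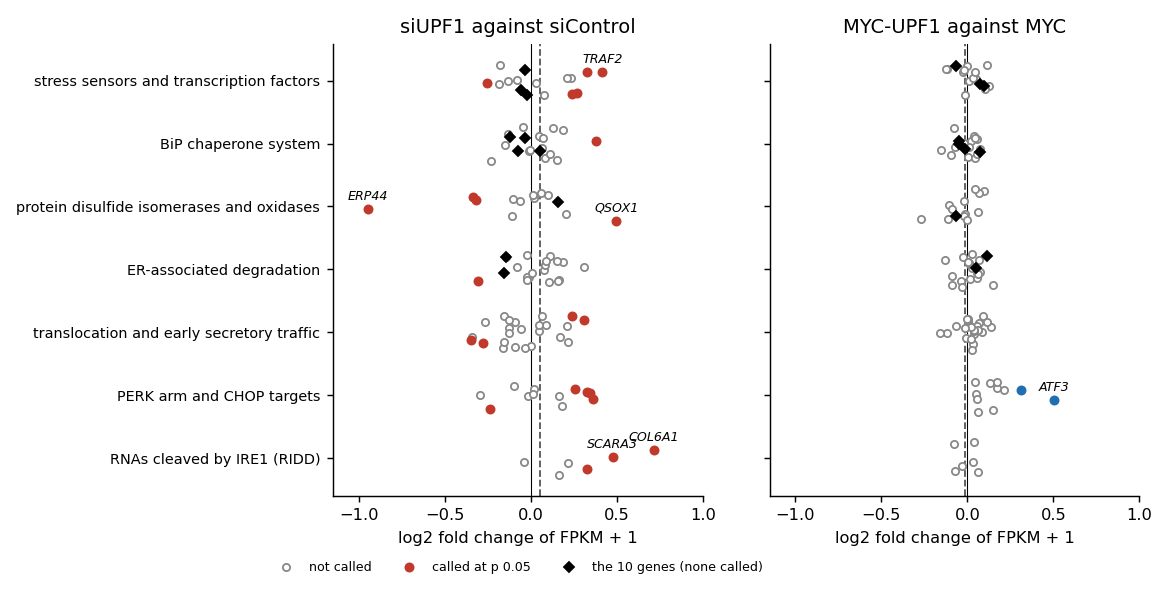
Log2 fold change of FPKM + 1 (horizontal axis) for all tested genes of the 7 pathway lists, siUPF1 against siControl on the left and MYC-UPF1 against MYC on the right. Diamonds are the 10 genes, filled circles are genes called at an unadjusted limma p of 0.05, and the dashed line is the median of all genes; ERP44 at -0.95 lies farthest from 0.

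The control groups of the experiments differed for many genes, several members among them. They also differ in the kind of transfection and in the experiment, which cannot be told apart, and no test was made. SDF2L1 was 1.29 times and PDIA4 1.20 times as high in MYC as in siControl, and XBP1 1.08 times. DNAJB9 was 0.707 times, EDEM1 0.821 times, HSP90B1 0.844 times and HERPUD1 0.866 times as high. In these 7 genes the MYC and siControl libraries did not overlap, 3 above and 4 below, and in ERN1, ATF6 and HSPA5 they did. Of 13105 genes, 25.7% lay above and 41.0% below in the same way, so this separation was not particular to the members. Across 12464 genes the difference between MYC and siControl correlated with GC content at 0.584 (Spearman).

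Profiles most like those of ERN1, XBP1 and HSPA5 were searched among 13105 genes, as the smallest root mean square distance of log2(FPKM + 1) over the 8 libraries, each taken relative to the controls of its experiment. For ERN1 they were LRRC59, SRRM1 and PSMB4, at distances of 0.0179 to 0.0203. For XBP1 they were SENP2, STAMBP and TMCC3, at 0.0178 to 0.0200. For HSPA5 they were UBAC1, ZIC1 and HNRNPA1, at 0.0247 to 0.0313. None of these 9 genes was called in either comparison, where 21.5% and 1.43% of all genes were called. They were chosen by likeness to genes that were not called, so this outcome was close to fixed by the choice. What their likeness rests on was not tested.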

How the data were processed

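mRNA of 8 Huh7 libraries was sequenced. Reads were trimmed of adapters and poor sequence, aligned to hg19 and assembled into transcripts by the authors, who deposited FPKM values per gene. The submitters' processing notes name FastQC 0.11.7, Trimmomatic 0.38, HISAT2 2.1.0 and StringTie 1.3.4d. Notes also name mm10, which was not used here. Tables of each experiment and of single libraries held the same values (0 differences). Depth is unknown: no ratio between libraries was shared by more than 1.056% of 284 low genes, so whole reads were not recovered.

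limma 3.58.1 (R 4.3.3) was fitted to log2(FPKM + 1) of each treatment and its control, with lmFit and a trended eBayes. Genes averaging 0.5 FPKM or more were tested, with Benjamini-Hochberg adjustment over all genes tested. The difference of the effects was fitted over all 8 libraries. The code was tested on simulated data. Python 3.11.15 with pandas 2.3.3, numpy 2.4.6 and matplotlib 3.10.9 served for tables and figures. GC content and length came from 1 representative transcript per gene of GENCODE release 44 on GRCh37 (MANE Select, else canonical, else longest; 15741 genes matched), with loess span 0.5 for trends.

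The members and lists were chosen with earlier results of these data known. Named genes were the 10 members, UPF1, EIF2AK3, ATF6B, ATF4 and DDIT3, up to 10 further pathway genes per comparison with the largest called change and no overlap between groups, and the 3 nearest profiles of ERN1, XBP1 and HSPA5. Alternatives were a pseudocount of 0.1, no minimum or a minimum of 1 or 5 FPKM, quantile normalization, median centring, no variance trend, all 8 libraries in a single fit, removal of the GC and length trend, the replicate number as a block, and each library left out.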

Additional observations from a re-analysis of the deposited data

Results flagged for a closer look

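For UPF1 and 14 of the 100 tested pathway genes the effect of depletion and the effect of overexpression differed from each other at an unadjusted p in the limma fit over all 8 libraries, where 15.2% of all genes did. None of the 10 unfolded protein response genes was among them. The difference (depletion minus overexpression, log2 scale) was -6.75 for UPF1, whose level was changed in opposite directions by design (BH-adjusted p = 2.89e-08). It was -0.928 for ERP44 (BH-adjusted p = 0.0692). Above 0 it was 0.796 for COL6A1, 0.767 for QSOX1, 0.55 for SCARA3, 0.542 for TRAF2, 0.359 for SEC61A1, 0.328 for NUPR1, 0.318 for P4HB and 0.266 for ATF4. Below 0 it was -0.517 for ATF3, -0.507 for CHAC1, -0.482 for SRP19, -0.405 for ASNS and -0.3 for YY1. NUPR1 was below the minimum for a test of overexpression alone. The BH-adjusted p-values of these 13 other genes ran from 0.152 to 0.309, so that UPF1 was the sole gene of the 15 below 0.05.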

How the results depend on the processing

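Removing the GC and length trend called 3 of the 10 genes after depletion (22.6% of all genes), 2 with the replicate block as well (HERPUD1 and SDF2L1, 20.8% of all genes), and 3 for the difference of the effects (EDEM1, HERPUD1 and XBP1, 16.1% of all genes), and raised the genes called after overexpression from 189 to 424. It turned the sign of DNAJB9 (0.00431), HSP90B1 (0.0173), SDF2L1 (-0.182) and ATF6B (-0.0958) after depletion, of SDF2L1 after overexpression (0.0113), and of ERN1 (-0.117), HSP90B1 (0.0547) and SDF2L1 (-0.191) for the difference, with the same values beside the block where it was fitted. Quantile normalization called XBP1 alone of the 10 after overexpression (1 gene), where 108 genes in all rose and 103 fell. It called HERPUD1 alone for the difference (1 gene), where 1024 genes in all were called above 0 and 907 below 0. It also turned HSP90B1 after depletion (0.00184) and for the difference (0.00511). ERN1 turned for the difference as well (-0.0367), and median centring did the same for ERN1 (-0.00228). A minimum of 5 FPKM left 1862, 49 and 1282 genes called after depletion, after overexpression and for the difference, and no minimum gave 409 after overexpression. The cause of these shifts was not tested, except that a minimum of 5 FPKM tests fewer genes.

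Leaving out each library in turn called 1435 to 5896 genes after depletion and 220 to 778 after overexpression, 0 to 4 and 0 to 1 of the 10, and moved their median from -0.106 to 0.0183 and from -0.054 to 0.0547. After depletion the log2 fold change then ran from -0.0588 to 0.0189 for ERN1, -0.0947 to 0.0281 for XBP1, -0.157 to 0.0464 for ATF6, -0.168 to 0.0178 for HSPA5, -0.155 to 0.0877 for HSP90B1, -0.319 to 0.0796 for DNAJB9, -0.136 to 0.249 for SDF2L1, -0.232 to -0.076 for HERPUD1, -0.214 to -0.0767 for EDEM1, 0.0711 to 0.246 for PDIA4 and -0.0159 to 0.168 for ATF6B. After overexpression it ran from -0.144 to 0.0125 for ERN1, -0.0564 to 0.206 for ATF6 and -0.154 to 0.128 for HSP90B1. It was -0.0357 to 0.186 for DNAJB9, -0.233 to 0.132 for SDF2L1 and -0.0705 to 0.173 for EDEM1. For HERPUD1 it was 0.0305 to 0.196, for HSPA5 -0.0708 to -0.032, for PDIA4 -0.129 to -0.00139 and for XBP1 0.0725 to 0.114. Outside the 10 it was -0.0548 to 0.0721 for ATF6B and -0.00742 to 0.104 for DDIT3. The single member called after overexpression was SDF2L1, without MYC replicate 1.

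Same-numbered libraries deviated in opposite directions for overexpression (r = -0.569) and only weakly so for depletion (r = -0.129). The numbers were not taken to pair samples. Differences between replicates followed GC content in siUPF1, MYC and MYC-UPF1, so these r values cannot decide whether samples were paired. With the replicate number as a block, 2586 and 170 genes were called, and 0 of the 10. A crossed pairing, chosen after seeing the data, called 3102 and 1227 genes. The precision is limited by 2 libraries per group and by a depth that is unknown.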
